A study of Rattus norvegicus with 24 samples.

Results

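Whole-liver RNA of rats was compared between burned and sham animals 7 days after injury, on 6 of the 24 oligonucleotide arrays of a series that covers days 1, 2, 4 and 7. The 6 arrays were chosen by their titles, which give a day, a letter and a number: b was read as burn, since the series is titled for burn injury, and s as sham. Against that reading, burn day 1 replicates 1 and 3 and burn day 2 replicate 1 are described as sham controls; the last enters the burn values of day 2 below, by its title. Burn day 7 and sham day 7 each held 3 arrays, and the comparison was set against the 6 arrays of day 2 and the 6 of day 4, again 3 per arm. The labels name no strain, age, sex, burn extent or sham procedure. The descriptions of the day 7 arrays say only that they are rat liver, so nothing in them goes against the titles. Nothing in the labels ties each array to an animal of its own, and a p-value here then sets a difference against the spread of these arrays only, which may be technical.

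The liver answers a large burn by changing what it makes and secretes. Cytokines reaching hepatocytes raise the acute-phase proteins, such as fibrinogen and haptoglobin, while export of albumin and transthyretin falls, and metabolism of fat, glucose and amino acids shifts over the following days to weeks. A comparison at a late day asks how much of such a response is still seen and whether the control liver has stayed where it was.

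Here that question could be put only to transcripts without names, because the probe set names in the table did not match its values. Over the day 7 arrays, 1490 pairs of probe sets listed under one gene symbol had levels that correlated at -0.05 across pairs (Pearson). Of 17 hepatocyte genes such as albumin, transthyretin and the fibrinogen chains, 16 were listed, in 21 rows. Only 2 of these rows stood in the brightest 10% on day 7, 10 stood below percentile 50, and their median percentile was 51.8. The liver identity of the tissue could therefore not be checked by name. Levels of the same row correlated at 0.942 to 0.965 between day 7 arrays and those of days 2 and 4 of the same arm, so a row was taken to be 1 transcript on these days. Rows are identified below by their place in the table, counted from 1. After 57 array control rows were set aside, 15866 rows were tested.

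Levels are given as log2(signal + 16) after quantile normalization, so a difference of 1 is 2-fold and changes of dim rows are understated. A level compares arrays within a row and not 1 row with another, and the table holds no detection call to tell a dim signal from background. A row was called when its Benjamini-Hochberg adjusted p in limma was under 0.05. The fit held the 18 arrays of days 2, 4 and 7, so that the spread of a row was estimated from 6 groups. The day 7 arrays resembled each other closely: across rows, burn arrays correlated with each other at 0.962 to 0.965, sham arrays at 0.962 to 0.969, and burn with sham at 0.955 to 0.964.

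On day 7, burned liver differed from sham liver in 8 rows, or 0.0504% of those tested, 4 higher and 4 lower in burn (0.0252% each). In 5 of them, rows 1945, 11091, 10383, 6608 and 6832, the burn mean lay on the same side of sham on days 2 and 4 as on day 7. In rows 6608 and 6832 the burn arrays of day 7 also lay beyond all 15 other arrays. In rows 9777, 2529, 4680 and 10383 the sham arrays of day 7 lay beyond all earlier sham arrays. In all of these but row 10383 the sham arm was called against its earlier days. Readings of an arm share the day 7 arrays and the estimate of spread with the choice of the 8 rows. They describe these rows and are no separate test. In all 8 rows the 3 burn and 3 sham arrays of day 7 did not overlap, as in 15.8% of all rows. The 3' over 5' ratio of Actb, a measure of RNA quality, did not overlap between these arrays either, and its part was tested only as a covariate. In whole tissue, fewer cells of a type and less RNA per cell cannot be told apart.

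**Figure D1:**
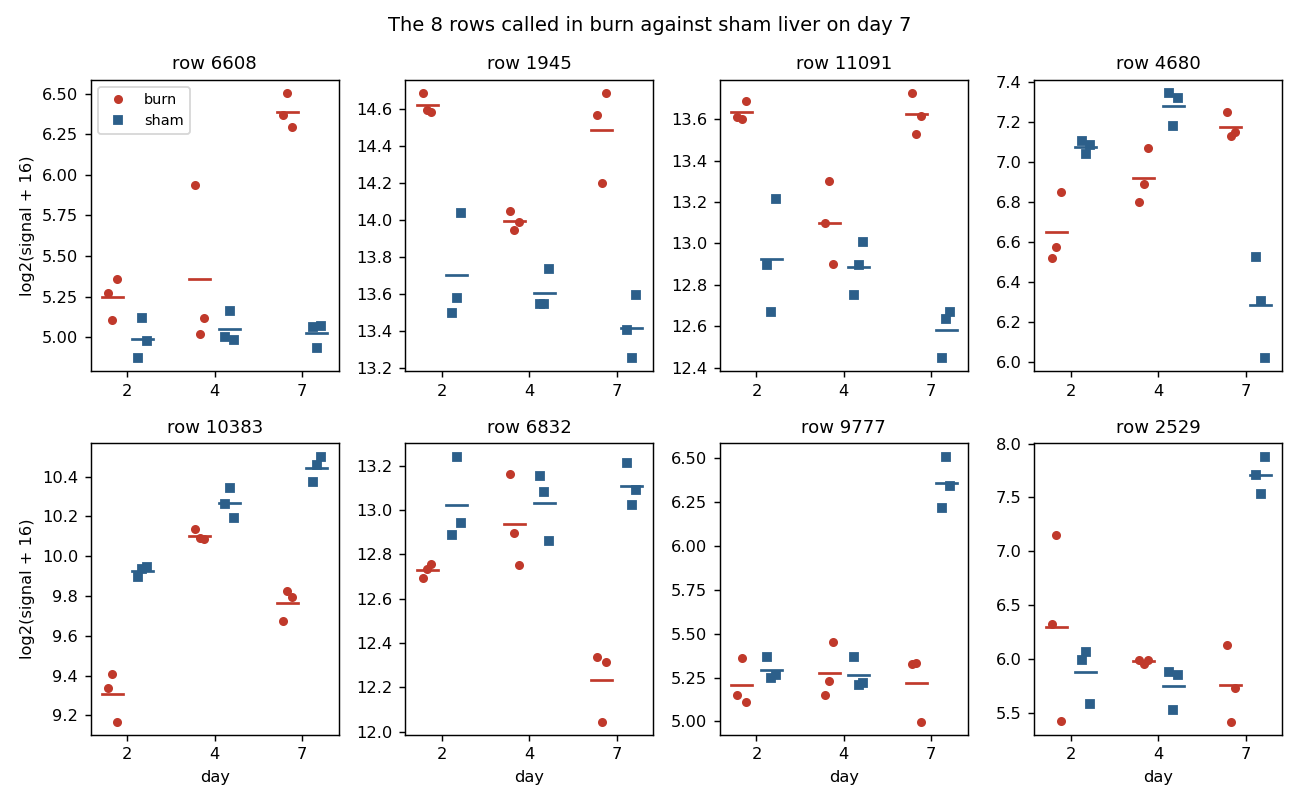
Level of the 8 called rows, log2(signal + 16) after quantile normalization, by day; circles are burn arrays, squares are sham arrays, bars are means of 3 arrays, and vertical scales differ between panels. In rows 9777, 2529 and 10383 the day 7 sham arrays stand above all 15 others, in row 6608 the day 7 burn arrays do, and in rows 1945 and 11091 burn has the higher mean on each day.

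Rows 1945 and 11091 were very bright, at percentiles 99.5 and 98.7 of level on day 7. Row 1945 had a deposited signal of 23177, 17772 and 27508 on the burn arrays and of 10921, 9606 and 12692 on the sham arrays. Every burn array thus exceeded every sham array, and on the log2 scale the means were 14.49 ± 0.25 and 13.42 ± 0.17 (SD, n = 3 each). The difference was 1.07 ± 0.16 (SE), 2.09-fold, with a limma adjusted p of 0.0233.

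Row 11091 gave a signal of 13431, 11464 and 12776 on burn and of 5766, 6285 and 6871 on sham arrays. Its log2 means were 13.62 ± 0.10 and 12.58 ± 0.12 (SD, n = 3 each), a difference of 1.04 ± 0.15 (SE; limma adjusted p = 0.0202). Against the mean of its own days 2 and 4, burn differed by 0.18 in row 1945 and 0.26 in row 11091, and sham by -0.24 and -0.32, none of them called. These earlier burn means join unlike days: burn averaged 14.62 and 13.64 on day 2 and 14.00 and 13.10 on day 4. The burn effect had been 0.92 and 0.71 on day 2 and 0.39 and 0.22 on day 4, with limma adjusted p from 0.0926 to 0.732. The arrays of row 1945 were apart on days 2 and 4 as well, and those of row 11091 on day 2 but not on day 4.

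In row 10383 the burn arrays read 9.68, 9.83 and 9.80 and the sham arrays 10.37, 10.46 and 10.50. The spread within each arm was small against the difference of -0.68 ± 0.10 (SE; limma adjusted p = 0.0233). Burn had been lower on both earlier days without overlap, with a difference of -0.62 on day 2 and -0.16 on day 4. Sham stood 0.35 ± 0.09 (SE; limma adjusted p = 0.127) above its earlier mean and burn 0.06, neither called. The earlier burn mean joins 2 unlike days: burn averaged 9.31 on day 2, 10.10 on day 4 and 9.77 on day 7.

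In row 6608, which was dim, burn arrays read 6.37, 6.50 and 6.30 and sham arrays 5.07, 4.93 and 5.07. The burn arrays of day 7 stood above all other 15 arrays of this row, of which burn day 4 replicate 1, at 5.94, came nearest. Burn exceeded sham by 1.37 ± 0.19 (SE; limma adjusted p = 0.0202), and burn day 7 exceeded its own earlier mean by 1.09 ± 0.16 (SE; limma adjusted p = 0.0307), while sham differed from its own by 0.004. The size of 1.37 became 0.71 when the pseudocount was 64 and 1.98 when it was 1.

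Row 6832, at percentile 98.0, had a deposited signal of 5106, 4075 and 4891 on burn and of 9838, 8137 and 9056 on sham arrays. All 3 burn arrays lay below every other array of the row. Burn minus sham was -0.88 ± 0.14 (SE; limma adjusted p = 0.0366), after -0.30 on day 2 and -0.09 on day 4. Burn differed from its own earlier mean by -0.60 ± 0.12 (SE; limma adjusted p = 0.0867) and sham by 0.08, neither of them called.

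In the other 3 rows the sham arm had moved. Row 9777 had the smallest adjusted p of day 7. Its burn arrays read 5.32, 5.33 and 5.0, and its sham arrays 6.22, 6.51 and 6.34. On days 2 and 4 all 12 arrays lay between 5.11 and 5.45, so the day 7 sham arrays stood above the other 15. Burn minus sham was -1.14 ± 0.13 (SE; limma adjusted p = 0.00569), and sham day 7 exceeded its earlier mean by 1.08 ± 0.11 (SE; limma adjusted p = 0.00184) while burn differed by -0.02. The row was dim: its deposited signal averaged 21.0 on burn and 56.6 on sham arrays, and the difference ran from -0.61 (pseudocount 64) to -1.60 (pseudocount 1).

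Row 2529 had the same pattern at a larger size. Burn arrays read 6.13, 5.42 and 5.72 and sham arrays 7.71, 7.53 and 7.88, a difference of -1.95 ± 0.31 (SE; limma adjusted p = 0.0366). Sham day 7 was 1.89 ± 0.27 (SE) above its earlier mean (limma adjusted p = 0.0189), and burn differed from its own by -0.38, not called. The highest array outside sham day 7 was burn day 2 replicate 2, at 7.15. This row was dim too: its deposited signal averaged 39.0 on burn and 171.6 on sham arrays of day 7. The difference ran from -1.32 (pseudocount 64) to -2.33 (pseudocount 1).

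Row 4680, also dim, went the other way. Sham arrays read 6.53, 6.31 and 6.02, all below the lowest sham array of the earlier days, at 7.04, and sham day 7 fell by 0.89 ± 0.12 (SE; limma adjusted p = 0.0145) from its earlier mean. Burn arrays read 7.25, 7.13 and 7.15, 0.39 above their own earlier mean and not called. Burn was higher by 0.89 ± 0.14 (SE; limma adjusted p = 0.0264) on day 7. It had been lower, without overlap, on day 2 (-0.43) and day 4 (-0.36). The day 7 difference was 0.61 with a pseudocount of 64 and 1.05 on values as deposited.

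All 8 differences kept their direction under every alternative run, but each call depended on the setting. Each ended when the Actb 3' over 5' ratio entered the fit as a covariate (limma adjusted p = 0.491 to 0.744), when the 6 arrays of day 7 were fitted alone (0.0893 to 0.276) and with the replicate block within days (0.0839 to 0.134). Median scaling ended those of rows 1945, 4680 and 11091 (limma adjusted p = 0.0890, 0.0508 and 0.0820), an intensity trend with robust variance that of row 4680 (0.0672) and a pseudocount of 1 that of row 2529 (0.0950). A replicate block over days, added after the data were seen, ended those of rows 2529, 4680, 6832 and 10383 (0.0579 to 0.0599). Row 9777 kept its call in 28 of 31 alternatives and in all 18 fits that left out 1 array. Row 2529 kept it in 14 of 31, and the other 6 rows in 20 of 32 to 25 of 31. Without burn day 7 replicate 3, 7 of the 8 calls ended (limma adjusted p = 0.0719 to 0.126). Without burn day 7 replicate 1, the same 7 rows lost theirs. Rows 1945, 6608, 11091 and 10383 also lost it without sham day 7 replicate 1, and rows 4680 and 10383 without sham day 7 replicate 3, with limma adjusted p of at most 0.0976 over all such losses of these 5 rows. Row 6832 lost its call in 8 of 18 such fits (limma adjusted p = 0.0515 to 0.137) and row 2529 in 12 of 18 (0.0555 to 0.126).

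A larger set of rows lay apart, most of them not called. With 3 arrays against 3, lack of overlap carries an exact two-sided permutation p of 0.1. Rows that do not differ can therefore also lie apart. The arrays of day 7 did not overlap in 1245 rows with burn higher (7.85%) and in 1263 with burn lower (7.96%), and at an unadjusted p under 0.05 limma gave 1563 rows (9.85%), 849 higher (5.35%) and 714 lower (4.5%). Without overlap and at least 2-fold apart were 216 rows (1.36%), 129 with burn higher (0.813%) and 87 with burn lower (0.548%). The median size of the difference over all rows was 0.18, and its median SE was 0.21. Setting these against each other is no test of whether rows differ.

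Differences of 2-fold were mostly in dim rows. Rows were split into 3 classes of equal size by mean level over the 18 arrays. In the dim class, 87 rows had burn 2-fold or more above sham without overlap and 70 had it 2-fold or more below. In the bright class there were 22 and 5. The SE had a median of 0.35 in the dim and 0.16 in the bright class, and arrays did not overlap in 12.1% of dim and 20.7% of bright rows. Of the 8 calls, 4 lay in each of these classes.

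The balance between the directions moved with the scaling. Before normalization the median level of an array averaged 7.79 ± 0.07 in the burn group and 7.66 ± 0.10 in the sham group (SD, n = 3 each), which was the lowest of the 6 groups, and the interquartile range was 2.46 ± 0.10 and 2.62 ± 0.14. On values as deposited, 578 dim rows were apart with burn higher and 137 with burn lower, against 307 and 335 after quantile normalization. With median scaling the bright class turned, to 205 higher and 939 lower, against 552 and 544. Among the calls, 4 of 8 were higher in the quantile-normalized fit, 7 of 12 on values as deposited and 1 of 5 with median scaling.

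**Figure D2:**
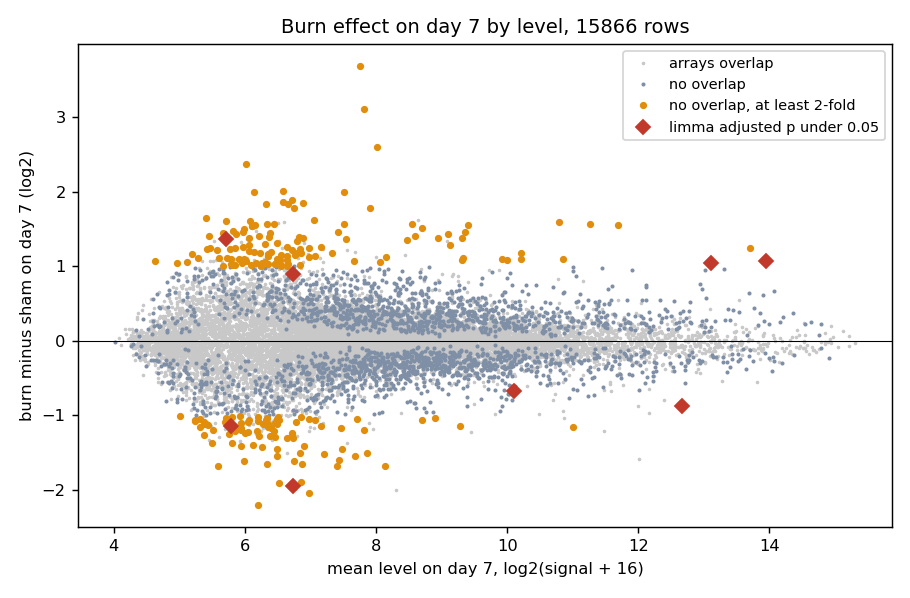
Burn minus sham on day 7 (log2) against the mean level of the row on day 7, for 15866 rows; colours separate rows whose arrays overlap, do not overlap, do not overlap and are at least 2-fold apart, and are called by limma. The 8 called rows lie toward both ends of the level range, and the largest sizes, such as 3.69 in row 422, belong to dim and middle levels.

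The largest differences on day 7 were not called. Rows 422 and 15384 led the rises. Row 422 read 10.13, 8.74 and 9.95 on burn arrays and 4.65, 5.08 and 8.03 on sham arrays, and row 15384 read 9.83, 8.63 and 9.66 against 5.92, 4.71 and 8.15. In both, sham day 7 replicate 3 stood far above the other sham arrays, though still below every burn array. The differences were 3.69 ± 0.97 (SE) and 3.11 ± 0.89 (SE), with limma adjusted p of 0.192 and 0.234. Without sham day 7 replicate 3 they were 4.74 and 4.06.

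Rows 8943 and 3189 came next. In row 8943 burn arrays read 9.21, 8.92 and 9.79 and sham arrays 5.76, 8.38 and 5.99, so here replicate 2 was the sham array near burn. The difference of 2.60 ± 0.64 (SE; limma adjusted p = 0.151) became 3.43 without that array, with a limma adjusted p of 0.0185. The array left out was picked as the one near burn, so the smaller p is no test of the difference. Row 3189 was dim and split cleanly, at 6.81, 7.26 and 7.53 in burn and 5.27, 4.65 and 4.57 in sham, a difference of 2.37 ± 0.52 (SE; limma adjusted p = 0.108). Burn minus sham had been -0.39 on day 2 and -0.29 on day 4.

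Among falls, rows 7495, 676 and 8677 were larger than the called row 2529, by their point values. Row 7495 differed by -2.20 ± 0.38 (SE; limma adjusted p = 0.0593) and repeated the pattern of row 2529: the sham arrays of day 7 read 6.90, 7.21 and 7.78. Their mean was 1.86 above that of the earlier days (limma adjusted p = 0.0415), while burn read 5.02, 4.80 and 5.47 and differed from its own by -0.30. Row 676 differed by -2.03 ± 0.43 (SE; limma adjusted p = 0.0974), and in it burn was the arm farther from its earlier level. Burn read 5.89, 5.30 and 6.69, or -2.11 ± 0.37 (SE; limma adjusted p = 0.0642) against its own earlier mean, and sham differed by 0.14. Row 8677 was in between, with -1.96 ± 0.37 (SE; limma adjusted p = 0.0758), with sham 0.96 and burn -0.93 from their earlier means, neither called. Its burn minus sham was called in 7 of 31 alternatives, and with the replicate block within days it was the 1 row called (limma adjusted p = 0.00345).

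Bright rows that were 2-fold apart without overlap were mostly rises in the quantile-normalized values, with 22 rises and 5 falls, and on values as deposited (23 and 7), but not with median scaling (18 and 17). Rows 14966, 11088 and 485 were higher in burn by 1.59 ± 0.36, 1.56 ± 0.29 and 1.56 ± 0.38 (SE), with limma adjusted p of 0.110, 0.0758 and 0.145. Row 11088 had a deposited signal of 4880, 2312 and 6257 on burn against 1514, 1536 and 1339 on sham arrays, and burn had also been higher without overlap on day 2 (1.21) and day 4 (0.75). Without burn day 7 replicate 2, its lowest burn array, the difference was 1.98 and the limma adjusted p 0.00499. This smaller p also follows from the choice of the array left out. The 3 largest falls of bright rows were rows 11719, 6467 and 14576, at -1.67 ± 0.78, -1.15 ± 0.26 and -1.14 ± 0.41 (SE), none called (limma adjusted p = 0.505, 0.111 and 0.363). With the Actb ratio as a covariate the direction of row 14576 was not kept, at 0.055. Rows 14966, 485 and 11719 shrank under it to 0.41, 0.95 and -0.22 (limma adjusted p = 0.954, 0.899 and 0.997). Row 11088 stayed at 1.24 or more, and row 6467 between -1.38 and -0.82, under every alternative run. In row 14966 sham day 7 replicate 2, at a deposited signal of 2058, stood above the other sham arrays, at 857 and 597.

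The 5 brightest rows of day 7 (10867, 13671, 2207, 13420 and 3186) showed little difference between the arms. Their differences ran from -0.08 to 0.14, with limma adjusted p from 0.700 to 0.960, and 4 of them changed sign under at least 1 alternative. Quantile normalization gives the top ranks of every array the same values, so their deposited signal is the plainer measure. The brightest, row 10867, averaged 40639 on burn and 42101 on sham arrays.

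Each arm was next read against itself. Sham day 7 differed from the mean of sham days 2 and 4 in 26 rows (0.164%), 12 higher (0.0756%) and 14 lower (0.0882%). Burn day 7 differed from burn days 2 and 4 in 9 rows (0.0567%), 6 higher (0.0378%) and 3 lower (0.0189%), and no row was called in both arms. At an unadjusted p under 0.05 limma gave 2358 rows in the sham arm (14.9%) and 1996 in the burn arm (12.6%). Whether 1 arm moved more than the other was not tested as a count.

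The sham count moved far with the scaling. Values as deposited gave 163 calls there, 22 of them rises, and median scaling 73, with 45 rises. On values as deposited the median over all rows of sham day 7 minus its earlier mean was -0.11, against -0.003 after quantile normalization. In the burn arm values as deposited gave 3 calls (1 rise) and median scaling 8 (6 rises). The sham count was 8 to 16 in 14 of the 18 fits that left out 1 array, 20 to 27 in 3 of them and 66 without sham day 7 replicate 2.

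The largest sham rises were in rows 14113, 2529 and 7495. Row 14113 stood at 7.77, 8.26 and 8.50 on sham day 7, while 5 of the 6 earlier sham arrays lay between 4.97 and 5.34 and sham day 2 replicate 3 read 6.46. It rose by 2.85 ± 0.51 (SE; limma adjusted p = 0.0415). Burn had stood above sham in this row by 2.11 on day 2 and 0.95 on day 4. On day 7 it differed from sham by -0.79 (limma adjusted p = 0.729). The day 7 arrays were apart after quantile normalization but not in deposited signal, where burn replicate 2 read 190.2 and sham replicate 1 read 180.1. The call of the sham rise of row 14113 held in 14 of 29 alternatives and that of row 7495 in 10 of 29, while that of row 2529 held in 26. Leaving out 1 array ended the call of row 14113 in 13 of 18 fits (limma adjusted p = 0.0522 to 0.137), that of row 7495 in 15 (0.0518 to 0.151) and that of row 2529 in 2, without sham day 7 replicates 1 and 3 (0.0515 to 0.0531).

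The largest sham falls were in rows 6651, 11442 and 2780, at -1.72 ± 0.26, -1.65 ± 0.26 and -1.51 ± 0.25 (SE), with limma adjusted p of 0.0220, 0.0360 and 0.0411. Row 6651 read 5.14, 6.23 and 5.28 on sham day 7, against 6.82 to 7.88 on the earlier sham arrays. Row 11442 read 8.09, 9.20 and 7.89 against 9.48 to 10.64. Replicate 2 was the least changed sham array in all 3 rows. Burn in these rows differed from its own earlier mean by 0.02, 0.30 and -0.45, none called. In row 11442 that earlier mean joins unlike days: burn averaged 10.15 on day 2, 8.89 on day 4 and 9.82 on day 7. The call of row 6651 was lost without sham day 7 replicates 1 or 3 (limma adjusted p = 0.0738 and 0.0630), that of row 11442 in 5 of 18 such fits (0.0511 to 0.0930) and that of row 2780 in 9 (0.0510 to 0.118).

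In the burn arm, row 9696 rose most. Its burn arrays read 8.43, 8.63 and 8.46 on day 7 and between 5.59 and 6.07 before, a rise of 2.69 ± 0.39 (SE; limma adjusted p = 0.0307). Sham read 5.77, 8.08 and 5.68 on day 7, so the high level was seen on 4 of the 6 day 7 arrays and on none of the 12 earlier ones. For burn against sham this gave 1.99 ± 0.45 (SE; limma adjusted p = 0.108). Without sham day 7 replicate 2 it gave 2.78, with a limma adjusted p of 5.4e-05, the smallest of any row in that fit. That array was the only sham array at the burn level, so the small p follows from leaving it out and is no test. The burn rise was lost when burn day 4 replicate 3, burn day 7 replicate 2 or burn day 7 replicate 3 was left out (limma adjusted p = 0.0593 to 0.119).

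Rows 4231 and 6608 were the next of the 6 burn rises, and the remaining 3 were of 0.93 to 1.06 (limma adjusted p = 0.0307 to 0.0471). Row 4231 was dim, at 6.50, 5.52 and 5.93 against 4.02 to 5.04 before (rise of 1.67 ± 0.28, SE; limma adjusted p = 0.0487), and its size ran from 0.72 with a pseudocount of 64 to 3.72 with one of 1. Sham stood 0.89 above its own earlier mean there, not called. The burn falls were rows 1852, 9378 and 6726, at -1.91 ± 0.30, -1.30 ± 0.17 and -1.29 ± 0.21 (SE; limma adjusted p = 0.0352, 0.0259 and 0.0447). In row 9378 the burn arrays read 4.66, 4.98 and 5.07, below all 15 others, and sham differed from its earlier mean by -0.07. That call held in 28 of 29 alternatives and ended with the Actb ratio as a covariate (limma adjusted p = 0.0651). In row 1852 burn read 5.98, 5.65 and 5.43, and sham read 7.37, 5.94 and 7.10, where sham replicate 2 lay within the range of burn. Leaving out 1 array ended the calls of rows 4231 and 6726 in 11 and 12 of 18 fits and those of rows 6608 and 1852 in 5 each, with limma adjusted p from 0.0566 to 0.144.

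**Figure D3:**
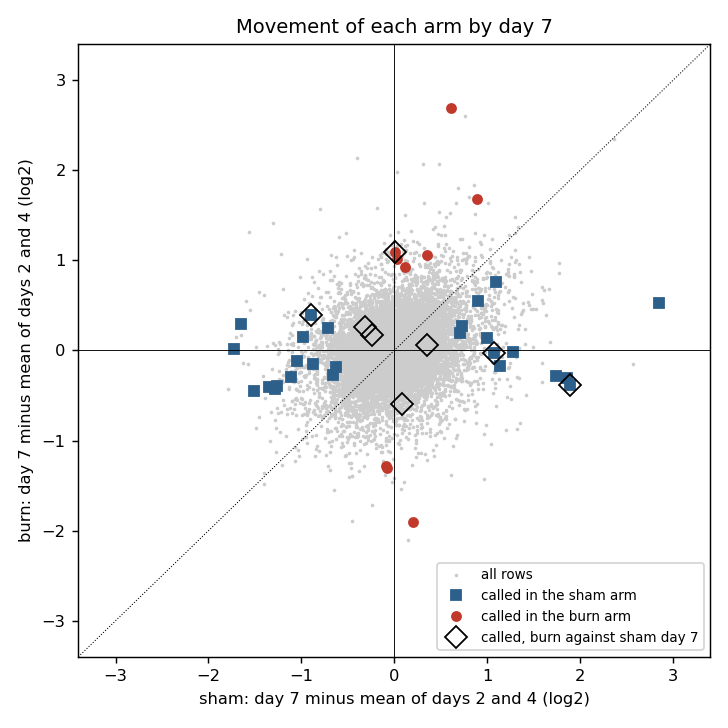
For each of 15866 rows, sham day 7 minus the mean of sham days 2 and 4 (horizontal, log2) against the same for burn (vertical, log2); squares are rows called in the sham arm, circles rows called in the burn arm and open diamonds the 8 rows called for burn against sham. The 26 rows of the sham arm lie to the left and right and the 9 of the burn arm above and below, some of them off the axes, such as row 4231 at 0.89 in sham and 1.67 in burn, and 3 diamonds fall on squares and 1 on a circle.

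In the 26 rows called in sham, the median size of the change was 1.10 in sham and 0.28 in burn. In the 9 rows called in burn it was 1.29 in burn and 0.12 in sham. Choosing rows by the change in 1 arm partly sets this contrast. Across all rows the changes of the arms, which share no arrays, correlated at 0.28 (Spearman 0.26, n = 15866 rows, which share arrays and normalization and are not independent). Of the rows at an unadjusted p under 0.05 in both arms, 386 of 432 had the same direction. They made up 18.3% of the sham list and 21.6% of the burn list.

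For the 216 rows without overlap and at least 2-fold apart on day 7, the sham change was the larger of the 2 in 125 rows (57.9%), against 52.3% of all rows. In the 129 higher in burn, burn had changed by a median of 0.53 and sham by -0.61. In the 87 lower in burn, the medians were -0.43 and 0.78. These comparisons share the day 7 arrays with the choice of rows and are given as a description.

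Whether the burn effect of day 7 differed from the mean effect of days 2 and 4 was tested directly. Limma called 2 rows (0.0126%), 4680 and 9777, with 1376 (8.67%) at an unadjusted p under 0.05. In row 4680 the effect was 1.28 ± 0.17 (SE) higher on day 7 (limma adjusted p = 0.0237), with burn below sham on both earlier days and above it on day 7. In row 9777 it differed by -1.10 ± 0.16 (SE; limma adjusted p = 0.0482). Row 4680 kept this call in 14 of 30 alternatives (limma adjusted p = 0.00909 to 0.407) and row 9777 in 6 of 30 (0.0305 to 0.407). Leaving out 1 array ended it in 9 of 18 fits for row 4680 and in 15 of 18 for row 9777. The next rows in each direction, 3955 and 6732, differed by 0.96 ± 0.17 (SE) and -2.39 ± 0.40 (SE) and were not called (limma adjusted p = 0.187 and 0.123). In row 6732 burn stood 1.99 above sham on day 4 and differed from it by -1.42 on day 7. Sham read 4.80, 5.07 and 5.40 on day 4 and 6.87, 6.98 and 7.05 on day 7.

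Rows that had set burn and sham apart on the earlier days were then read on day 7, for which no day 7 array was used in the choice. In 93 rows burn had been higher without overlap on both days 2 and 4. On day 7 burn was higher without overlap in 25 of them (26.9%) and lower in 3, against 7.85% and 7.96% of all rows, and the median difference was 0.10. In 90 rows burn had been lower on both days, and on day 7 it was lower without overlap in 17 (18.9%) and higher in 3. Of 102 rows higher in burn on day 2 and lower on day 4, burn was higher without overlap on day 7 in 37 (36.3%) and lower in 3, and of 64 rows with the reverse order it was lower in 10 and higher in 2. Day 7 thus followed the direction of day 2 in these counts, which were made after the data were seen and were not tested. The RNA quality ratios of Actb and Gapdh had the same order of signs, and that of Hk1 did not. On days 2, 4 and 7 burn minus sham was -0.37, 0.11 and -0.76 for Actb and -0.19, 0.18 and -0.50 for Gapdh. For Hk1 it was 0.38, -0.11 and -0.89. Their part in these counts was not tested.

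The rises that had been largest on days 2 and 4 kept their direction on day 7. These were rows 422, 15384 and 12810. Row 12810 read 7.56, 7.75 and 7.61 on burn arrays and 4.38, 5.78 and 7.40 on sham arrays, a difference of 1.79 ± 0.60 (SE; limma adjusted p = 0.314). It had been 2.16 on day 2 and 2.06 on day 4. The 3 rows followed each other over the 18 arrays, with correlations of 0.91 to 0.98, as their choice for a large burn effect on 2 of the 3 days partly fixes. In all 3, sham day 2 replicate 3 and sham day 7 replicate 3 were the highest sham arrays of their groups.

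Of the largest earlier falls, rows 6687 and 1558 kept their direction on day 7 under all alternatives run, and row 7556 did not. Rows 6687, 1558 and 7556 had been lower in burn, with differences of -1.33, -1.26 and -0.72 on day 2 and of -1.94, -1.53 and -1.08 on day 4. On day 7 the differences were -0.57 ± 0.42, -0.98 ± 0.42 and 0.15 ± 0.26 (SE), with limma adjusted p of 0.724, 0.460 and 0.911, and the arrays overlapped in all 3. In row 7556 the direction on day 7 was not settled, since it was -0.056 with median scaling, -0.037 without burn day 7 replicate 1 and -0.38 with the Actb ratio as a covariate.

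**Figure D4:**
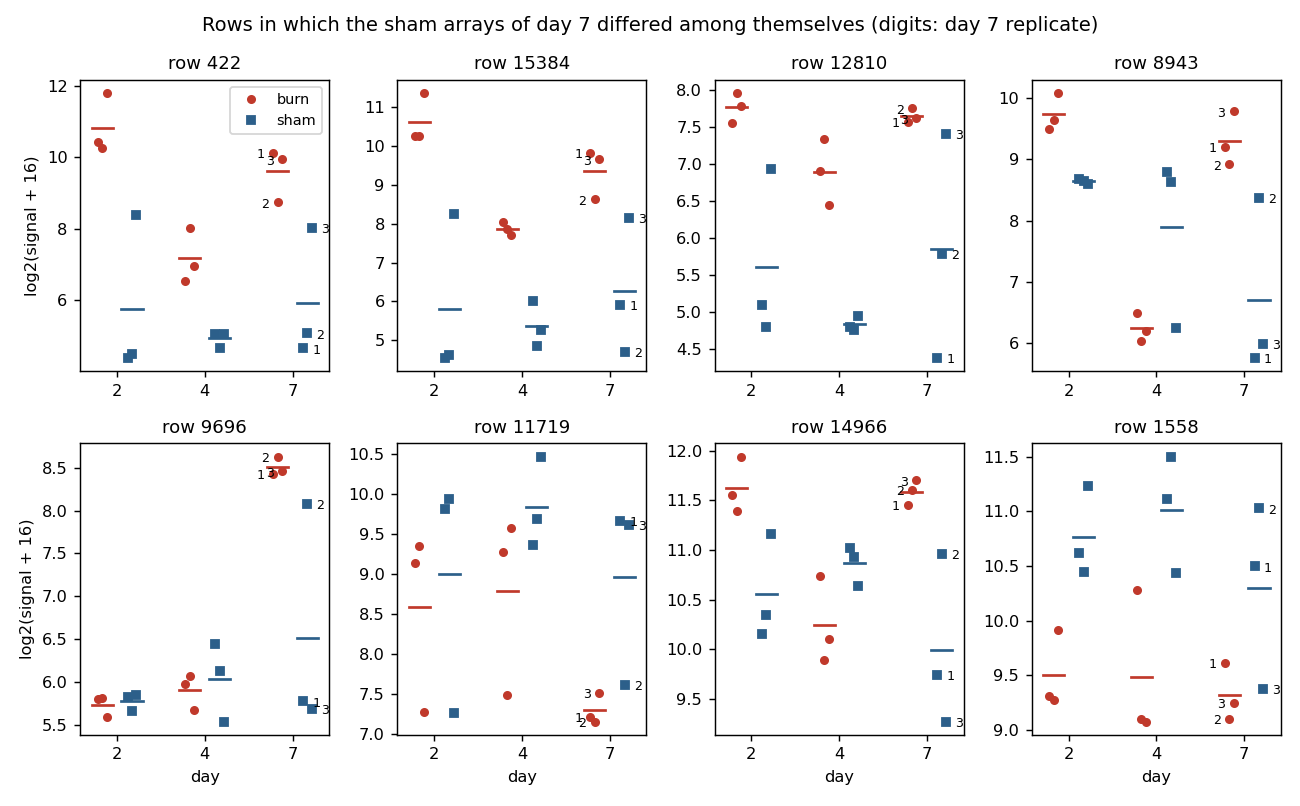
Level of 8 rows, log2(signal + 16) after quantile normalization, by day, the named rows with the largest SD between the sham arrays of day 7; circles are burn arrays, squares sham arrays, bars means of 3 arrays and digits the replicate number on day 7. In rows 422, 15384, 12810 and 1558 sham replicate 3 lies nearest to burn, and in rows 8943, 9696, 11719 and 14966 sham replicate 2 does.

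In several rows with large differences the sham arrays of day 7 were not alike. For each day 7 array, rows were counted in which the other 2 arrays of its group lay more than 1 log2 unit outside the range of the opposite group while it lay nearer to that group. Of 15866 rows, the other 2 arrays lay so in 91 for sham day 7 replicate 2, in 45 for sham replicate 3 and in 42 for sham replicate 1. The array itself lay nearer to burn in 61, 23 and 15 of these. For burn replicates 1, 2 and 3 it was 26 of 48, 28 of 56 and 26 of 48. Sham replicate 2 thus had the largest base, 91, and also the largest share of its base. In 51 of the 61 rows sham replicate 2 was above the other sham arrays. Leaving it out took the calls of day 7 from 8 to 65, of which 50 were higher in burn, and the calls for a differing effect from 2 to 18. The array was singled out by the same day 7 values, so these larger counts are no test.

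Signs of RNA quality in the array control rows differed between the groups on day 7. Whether the names of these rows hold was checked, since those of other rows do not. Bacterial and phage transcripts spiked in at rising amounts (bioB, bioC, bioD, cre) stood in that order on 18 of 18 arrays, by the mean of the newer and also of the older probe sets of each, although the older 5' set of bioD read below that of bioC on all 18. The rows of Actb and Gapdh stood at percentiles 96.4 to 99.1 of level on day 7. Those of Hk1 stood at 7.62 to 25.5, which does not test their names. The ratio of the 3' to the 5' probe set of a transcript rises when RNA is degraded or copied incompletely. Actb, cytoskeletal beta-actin, had log2 ratios of 0.37, 0.42 and 0.45 on burn arrays and of 1.29, 0.89 and 1.34 on sham arrays. For Gapdh, a glycolytic enzyme, they were 0.43, 0.40 and 0.35 on burn and 0.77, 0.66 and 1.27 on sham arrays. In both transcripts every burn array was below every sham array, with mean differences of -0.76 and -0.50, and sham replicate 2 had the lowest sham ratio. For Hk1, hexokinase 1, a dim transcript, the ratios overlapped, with means of -0.12 ± 0.83 and 0.77 ± 0.44 (SD, n = 3 each). The exact two-sided permutation p was 0.1 for Actb and Gapdh, the smallest that 3 arrays against 3 allow, and 0.3 for Hk1, or 0.15, 0.15 and 0.36 after adjustment over 6 tests of ratios and levels.

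The Actb ratio of sham arrays was highest on day 7. It averaged 1.17 ± 0.25 on day 7, against 0.62 ± 0.28 on day 2 and 0.71 ± 0.24 on day 4 (SD, n = 3 each). Burn averaged 0.41 ± 0.04 on day 7, between 0.26 ± 0.13 on day 2 and 0.82 ± 0.09 on day 4. The level of Actb, as the mean of its 3 probe sets, was 12.86 ± 0.05 on burn and 12.41 ± 0.24 on sham arrays of day 7 without overlap (exact permutation p = 0.1, adjusted 0.15), and that of Gapdh was 13.24 ± 0.08 and 13.02 ± 0.14 (exact permutation p = 0.1, adjusted 0.15). Hk1 averaged 5.93 ± 0.17 and 5.70 ± 0.41 (exact permutation p = 0.4, adjusted 0.4), with overlap. Each level includes the 3' and 5' probe sets that give the ratio, so level and ratio are not separate measures. None of the 6 tests passed, and 3 arrays against 3 cannot pass.

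With the Actb ratio of each array as a covariate, limma called 0 rows for burn against sham on day 7 (smallest adjusted p 0.478), with 938 rows at an unadjusted p under 0.05 against 1563 without it. It also called 0 rows in the sham arm (1569 at an unadjusted p under 0.05), 0 in the burn arm (1938) and 0 for a differing effect (1103). The differences of the 8 called rows were then 0.768 to 1.07 times their size without it, with row 1945 at 0.87, row 9777 at -1.11 and row 2529 at -1.50. The part of RNA quality in the day 7 differences was otherwise not tested, and ratio and group can hardly be told apart on day 7, where they do not overlap.

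**Figure D5:**
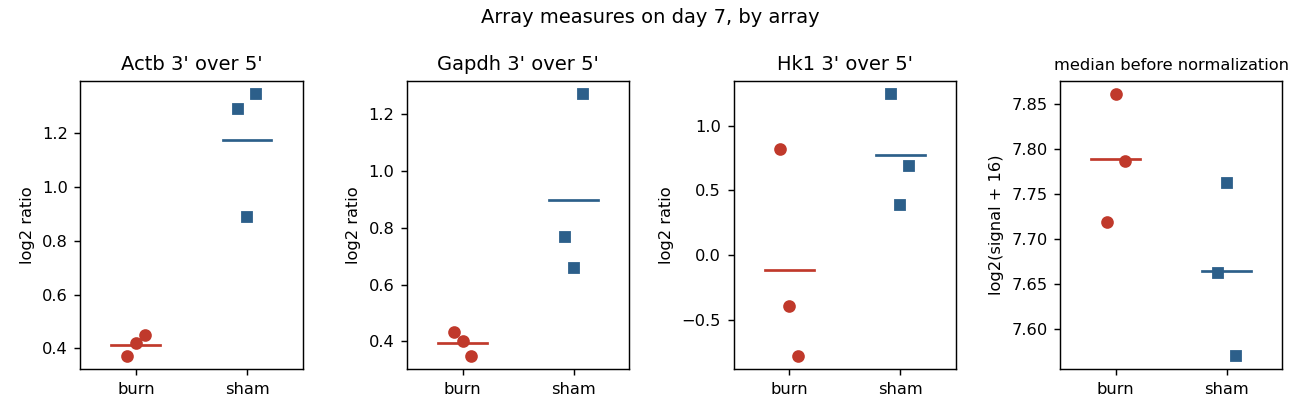
Log2 ratio of 3' to 5' probe sets of Actb, Gapdh and Hk1, and median log2(signal + 16) before normalization, for the 3 burn (circles) and 3 sham (squares) arrays of day 7; bars are means. The ratios of Actb and Gapdh are lower on every burn array, and the array medians of the groups overlap.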

How the data were processed

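The authors deposited linear intensity values, 1 for each of 15923 probe sets on 24 arrays, and the sources used here name no scanner or summary software. Per array, the mean of the deposited intensity without the lowest and highest 2% was 500.2 on all 18 arrays used, with medians from 174 to 233. Arrays limit the precision by their number. Day 1 was left out, since the levels of its rows did not follow those of the same rows on other days. Values were taken to log2(signal + 16) and quantile-normalized over all 24 arrays. After 57 control rows were left out, limma 3.58.1 (R 4.3.3; lmFit, eBayes) fitted 1 mean per group to 18 arrays (12 residual degrees of freedom), with Benjamini-Hochberg adjustment over 15866 rows. Exact permutation tests used scipy 1.17.1. The fit was tested on simulated data with 200 rows shifted on the burn arrays of day 7. Noise was normal and independent between rows and arrays, with 1 draw per shift size and no array-wide difference in RNA quality. The false shares below therefore do not carry over to the calls made on the real arrays. At a log2 shift of 1, 52% of them were called for burn against sham, 65.5% in the burn arm and 35.5% for a differing effect. Of those calls, 7.14%, 4.38% and 5.33% were false. At a shift of 2, 91.5%, 95% and 91% were called, and 8.04%, 4.04% and 9% of the calls were false.

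Named are all called rows, the 4 largest rises and falls without overlap, the 3 largest of each in the bright class, the 3 largest called rises and falls of each arm, the 2 rows of smallest p in each direction for a differing effect, the 5 brightest rows, and the 3 largest rises and falls of days 2 and 4 together. The members and this rule were chosen with earlier results of these data known. Alternatives changed normalization, pseudocount, filter, variance model, weights, samples, covariate and pairing.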

Additional observations from a re-analysis of the deposited data

Results flagged for a closer look

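The burn effect of day 7 differed from that of days 2 and 4 by limma's test in rows 4680 and 9777, by 1.28 and -1.10 (log2). In the first, burn lay below sham on days 2 and 4 and above it on day 7. In the second, the burn mean lay -0.09 and 0.01 from the sham mean on days 2 and 4.

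In 5 measures of control transcripts, the burn arrays of day 7 were all above or all below the sham mean of their day while those of an earlier day were all on the opposite side. The change between days had no test here. Between day 7 and day 4 they were -0.87 for the Actb ratio, 0.84 for the Actb level, -0.68 for the Gapdh ratio and 0.72 for the Hk1 level. Between day 7 and day 2 it was 0.30 for the Gapdh level. The ratio and the level of a transcript share probe sets and are not separate measures.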

How the results depend on the processing

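Counts are rows called by limma, against 8 for burn minus sham on day 7, 26 for the sham arm, 9 for the burn arm and 2 for a differing effect. Values as deposited gave 163 in the sham arm, 3 in the burn arm and 0 for a differing effect, whose median over all rows became 0.11. Median scaling gave 5, 73 and 0 (day 7, sham arm, differing effect). A pseudocount of 1 gave 13, 1 and 1 (sham, burn, differing effect), and one of 64 gave 21, 24 and 1 (day 7, burn, differing effect). Without the dim class there were 4, 16, 0 and 0. Intensity trend with robust variance gave 56 on day 7, 38 in the burn arm and 0 for a differing effect, and array weights 39 on day 7 and 52 in the sham arm. Without burn day 2 replicate 1, whose description speaks of a sham control, there were 13, 16, 5 and 0. The Actb ratio as a covariate gave 0 in all 4. The 6 arrays of day 7 alone gave 0, with 1425 rows at an unadjusted p under 0.05. Requiring 2-fold as well left 5 on day 7 and 16 in the sham arm. The share of rows without overlap was 15.8%, 16.6% on values as deposited, 16.4% with median scaling and 17.6% without the dim class. At the 0 counts for a differing effect, between 1087 and 1685 rows had an unadjusted p under 0.05 in the scaling, filter and variance settings; in the burn arm without the dim class, 1546 had. What caused these shifts was not tested.

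Fits lacking 1 array gave 2 (without burn day 7 replicate 3) to 65 on day 7, 8 (without burn day 7 replicate 2) to 66 in the sham arm, 3 to 15 in the burn arm (without burn day 7 replicates 3 and 1) and 0 to 18 for a differing effect. The highest counts of day 7, the sham arm and the differing effect came without sham day 7 replicate 2. The day 7 count was also 4 or 16 when burn day 7 replicate 1 or 2 was dropped, 3 for sham day 7 replicate 1, 13 for burn day 2 replicate 1 and 16 for sham day 2 replicate 3. In the burn arm there were 14 without burn day 2 replicate 2 and 4 or 5 without burn day 2 replicate 1, burn day 4 replicate 3 or sham day 7 replicate 2. For a differing effect, 8 of 18 such fits gave 0, and 4 and 5 came without burn day 4 replicate 1 and burn day 7 replicate 1. In such fits the thinned group of 2 takes its spread from all groups.

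Equal replicate numbers were not shown to pair arrays: on day 7 the deviations of same-numbered arrays correlated at 0.01 to 0.07. The replicate block within days gave 1 call on day 7 (row 8677, not among the 8) and 1 for a differing effect, and cannot be had for the arms. The replicate block over days, added after the data were seen, gave 5 on day 7 and 0 for a differing effect.

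The 57 single-row results had 738 values from changed settings, of which 8 reversed, and 1026 from fits lacking 1 array, of which 1 reversed, all in rows not called for burn minus sham. These were row 14576 (0.055), row 4231 (-0.30), row 13420 (-0.0031) and row 3186 (0.063) with the Actb ratio as a covariate, row 13671 (-0.027) with median scaling, row 2207 (0.010) on values as deposited, and row 7556 (-0.056 with median scaling, -0.38 with the covariate, and -0.037 to 0.36 with 1 array of day 7 left out, burn replicates 1 and 3). The call was lost in 82 and 142 of these values and gained in 22 and 20. The direction of all 6 ratios and levels of control transcripts stayed under every setting, with an array left out between -0.90 and -0.67 for the Actb ratio, -0.62 and -0.32 for Gapdh and -1.36 and -0.56 for Hk1, and between 0.33 and 0.57, 0.15 and 0.29, and 0.021 and 0.43 for the levels.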
